A study of Mus musculus with 2 samples.

Results

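Insulin-like growth factor (IGF) transcripts were followed across the cells of the mouse thoracic aorta. The family described here consists of 10 genes, chosen by symbol from the 32287 features measured: the ligands *Igf1* and *Igf2*, the receptors *Igf1r* and *Igf2r*, and the binding proteins *Igfbp2*, *Igfbp3*, *Igfbp4*, *Igfbp5*, *Igfbp6* and *Igfbp7*. Each symbol matched 1 feature. Single-cell RNA sequencing of 2 thoracic aortas gave the data, 1 library per aorta. Both mice were C57BL/6J of the genotype GFPiSMC (Myh11-CreERT2 mT/mG), which the study treats as wild type. In these animals a tamoxifen-inducible Cre, driven by the *Myh11* promoter and so active in smooth muscle cells (SMCs), switches a membrane reporter from tdTomato to eGFP. The labels give tamoxifen as 1 mg daily over 5 days, begun when the mice were 3 weeks old, and place the analysis at an age of 12 weeks. The study's methods give other starting ages for its inductions, so the sources differ on the age. Because there was 1 group of animals (n = 2), the comparisons are between cell types and between clusters of cells within the aortas, and all mice carried the Cre, the reporter and the tamoxifen exposure.

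IGF1 and IGF2 are secreted growth factors that act through the tyrosine kinase receptor IGF1R. IGF2R, also the cation-independent mannose 6-phosphate receptor, carries lysosomal enzymes and takes up IGF2 for degradation without signaling as a kinase. IGF-binding proteins hold the ligands in the extracellular space, lengthen their lifetime or keep them from the receptor, and are cut by proteases that release the ligand. IGFBP7 binds IGFs weakly and is also known as a matrix-associated protein. In arteries, IGF1 is known as a growth and survival factor for SMCs.

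The files held 8947 and 6263 cells with 47009780 and 30919996 UMIs (unique molecular identifiers, which count captured RNA molecules). After filtering and removal of doublets, 6543 and 4609 cells remained, with medians of 5671 and 5392 UMIs. The labels state 6278 and 4300 cells after the study's own filtering, which was not repeated here. The cells fell into 32 clusters, of which 30 were named from markers: 3848 SMCs, 2765 fibroblasts, 1514 endothelial, 1485 myeloid, 986 lymphocyte, 430 mesothelial and 36 erythroid cells. Names are marker-based, so each stands for cells like that type. In 6 of the 7 types every marker was highest in its own type in both aortas, and in lymphocytes 11 of 12 were. The same markers had named the clusters, so this is not an independent check of the names. Of the barcodes in the files, 18 occurred in both aortas. The 10 genes and the 47 other genes of the pathway list were left out of the clustering, although genes that vary with them were not. A pair of fibroblast-named clusters stood apart because they also carried the SMC reporter: eGFP was at 3795 and 3094 UMIs per 1e+06 UMIs (CPM) in a cluster with *Rgs17* and *Rspo3* among its leading genes (225 cells) and at 2611 and 4296 CPM in the cluster led by *Mab21l2* and *Aox3* (158 cells), against 63.5 to 171 CPM in the other fibroblast clusters and 5574 to 7507 CPM in SMC clusters. *Myh11*, the smooth muscle myosin heavy chain, was at 1121 to 2612 CPM in the pair, together with the fibroblast gene *Dcn* at 4013 to 27374 CPM. Whether they hold mixed droplets or cells of SMC descent was not tested. Without them the mean fibroblast level was 386 CPM for *Igf1*, 109 CPM for *Igf2r*, 1.64 CPM for *Igfbp2* and 1564 CPM for *Igfbp4*. Another cluster, of 724 SMCs led by *Cyb5r3* and *Des*, had low depth, with medians of 1756 and 1768 UMIs.

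Levels are counts per 1e+06, that is, UMIs of a gene divided by all UMIs of that cell type in that aorta and scaled to a total of 1e+06 (CPM). The 3′ chemistry counts 1 end of each molecule, so no division by gene length was made. Transcript ends can still be captured unequally, and levels are therefore compared mainly between cell types for the same gene. Shares of UMIs are shares over the cells analysed here, and how well these cells represent the aortic wall was not tested.

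**Figure D1:**
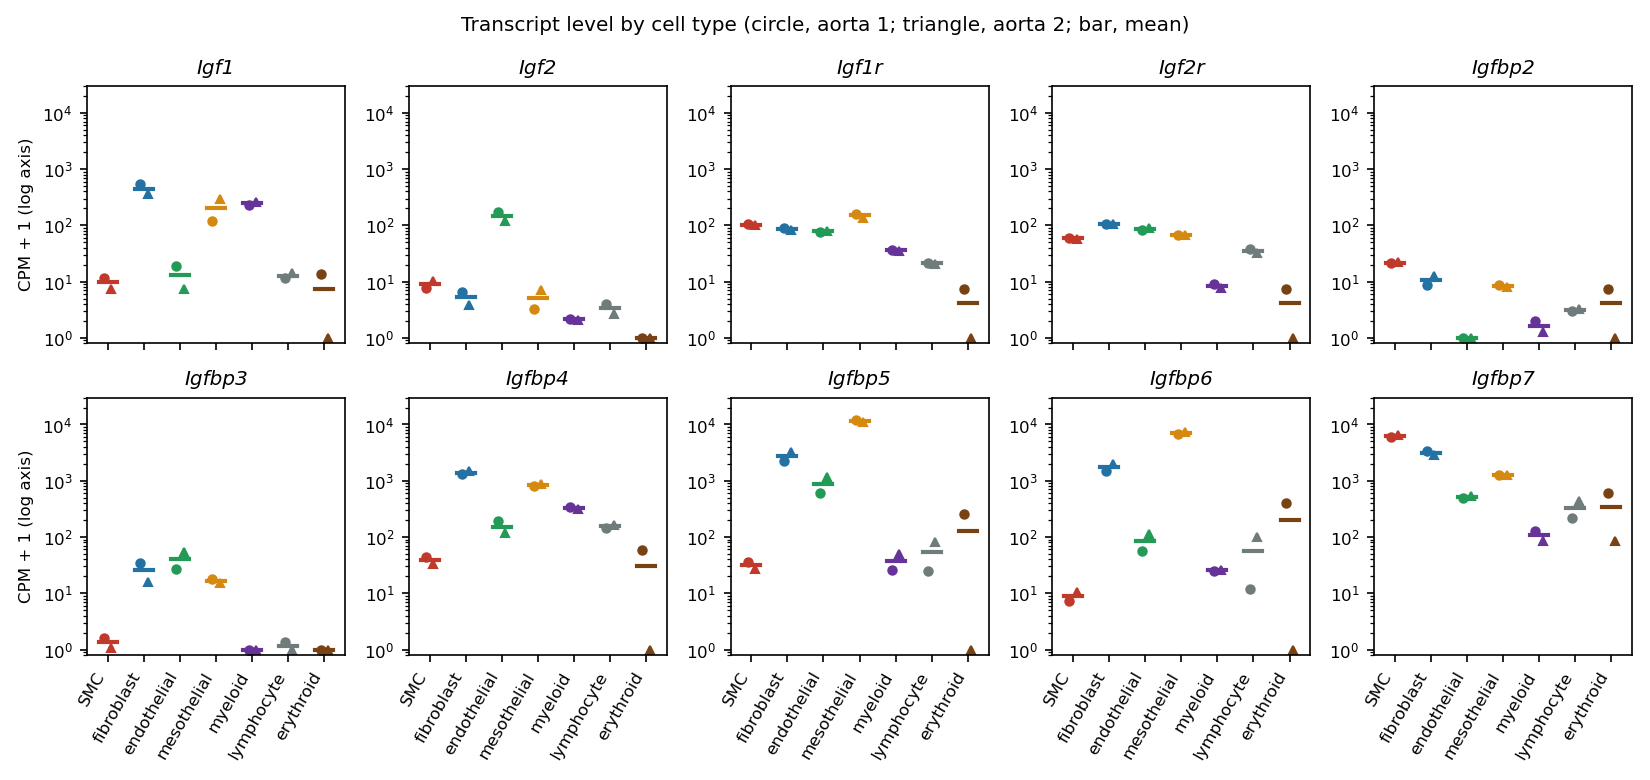
Level of each of the 10 genes in 7 cell types, as CPM + 1 on a log axis; circles are aorta 1, triangles aorta 2 and bars the mean. The SMCs sit highest for Igfbp7 (6062 and 6475 CPM) and Igfbp2 (20.2 and 21.1 CPM), the fibroblasts for Igf1 and Igfbp4, the endothelial cells for Igf2, and the mesothelial cells for Igfbp5, Igfbp6 and Igf1r.

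*Igf1* was mainly a fibroblast and myeloid transcript. Fibroblasts held 534 CPM in aorta 1 and 365 CPM in aorta 2, myeloid cells 227 and 261 CPM, and mesothelial cells 119 and 294 CPM. The fibroblast values lay above all others, whereas the ranges of myeloid and mesothelial cells overlapped. SMCs, which respond to IGF1, held only 10.8 and 6.53 CPM (181 and 76 UMIs), near the 10.4 and 13.2 CPM of lymphocytes. Of all *Igf1* UMIs, 69.5% ± 6.48 (SD, n = 2) came from fibroblasts (63.2% without the eGFP-bearing pair) and 21.5% ± 3.88 from myeloid cells. At a common depth of 1000 UMIs per cell, an *Igf1* UMI was found in 30.1% of the fibroblasts of aorta 1 (27.9 to 32.4, 95% Clopper-Pearson interval) and 23.3% of those of aorta 2 (20.9 to 25.9). The same share was 20.7% and 22.8% of myeloid cells and 0.804% and 1.10% of lymphocytes. Without thinning, it was 64.1% and 54.9% of fibroblasts, 54.01% and 56.1% of myeloid cells and 3.05% and 3.30% of lymphocytes. Intervals here cover counting error only.

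The clusters divided *Igf1* further. Among 6 fibroblast clusters the level differed (edgeR's quasi-likelihood F test, Benjamini-Hochberg adjusted p = 1.69e-10), from 113 and 78.0 CPM in the cluster led by *Pla1a* and *Dact2*, which also holds *Pi16* and *Cd248*, to 1894 and 1214 CPM in the *Mab21l2* cluster. That cluster is 1 of the pair with eGFP. Its cells without an eGFP UMI held 2604 and 2557 CPM of *Igf1* (46 and 12 cells), above the 1469 and 781 CPM of those with eGFP (57 and 43 cells). The other 4 fibroblast clusters also differed in *Igf1* (adjusted p = 2.85e-09). The next highest was the *Dio2* and *Mmp3* cluster, at 649 and 563 CPM, and it supplied 27.4% ± 3.01 of all *Igf1* UMIs. Within myeloid cells, *Igf1* stood at 427 and 447 CPM in the resident macrophage-like cluster led by *Folr2* and *Mrc1*, at 98.05 and 144 CPM in the *Mmp12* cluster, at 32.3 and 74.3 CPM in the *Slpi* cluster, and at 12.1 CPM or less in the clusters led by *Lyz1* and *Cd209a*, by *S100a9* (neutrophil-like) and by *Chil3*. The myeloid clusters differed (adjusted p = 1.19e-13). The *Folr2* cluster held 19.2% ± 2.95 of all *Igf1* UMIs.

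*Igf2* was an endothelial transcript in these adult aortas. Endothelial cells held 169 and 119 CPM, and no other type exceeded 9.19 CPM, so the endothelial range was well apart from the rest. Endothelial cells supplied 71.1% ± 3.97 of all *Igf2* UMIs, although they made up 12.0% and 15.8% of cells. Among cells with at least 5000 UMIs the share was 47.1%. The 5 endothelial clusters differed (adjusted p = 1.27e-10). The level was 424 and 354 CPM in the cluster led by *Adra2a* and *Stmn2*, which also holds *Sema3g* and *Gkn3*, 82.0 and 61.3 CPM in the *Cytl1* and *Pecam1* cluster, and 19.5 and 5.37 CPM in the *Emcn* and *Thbs1* cluster. The *Adra2a* cluster alone (418 cells) held 53.2% ± 0.559 of the *Igf2* UMIs. In the cluster led by *Gpihbp1* and *Rbp7* the aortas did not match: aorta 1 had 36 *Igf2* UMIs (247 CPM) and aorta 2 had 0, and these 40 and 49 cells had medians of 3747 and 1811 UMIs. Among SMCs, the cluster led by *Lrrtm3* and *Rgs5*, which also holds *Dlx6* and *Msx2*, had 20.3 and 16.7 CPM of *Igf2* against 3.17 and 5.29 CPM in the largest SMC cluster, led by *Mylk4* and *Postn*, and the 5 SMC clusters differed (adjusted p = 0.00319).

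**Figure D2:**
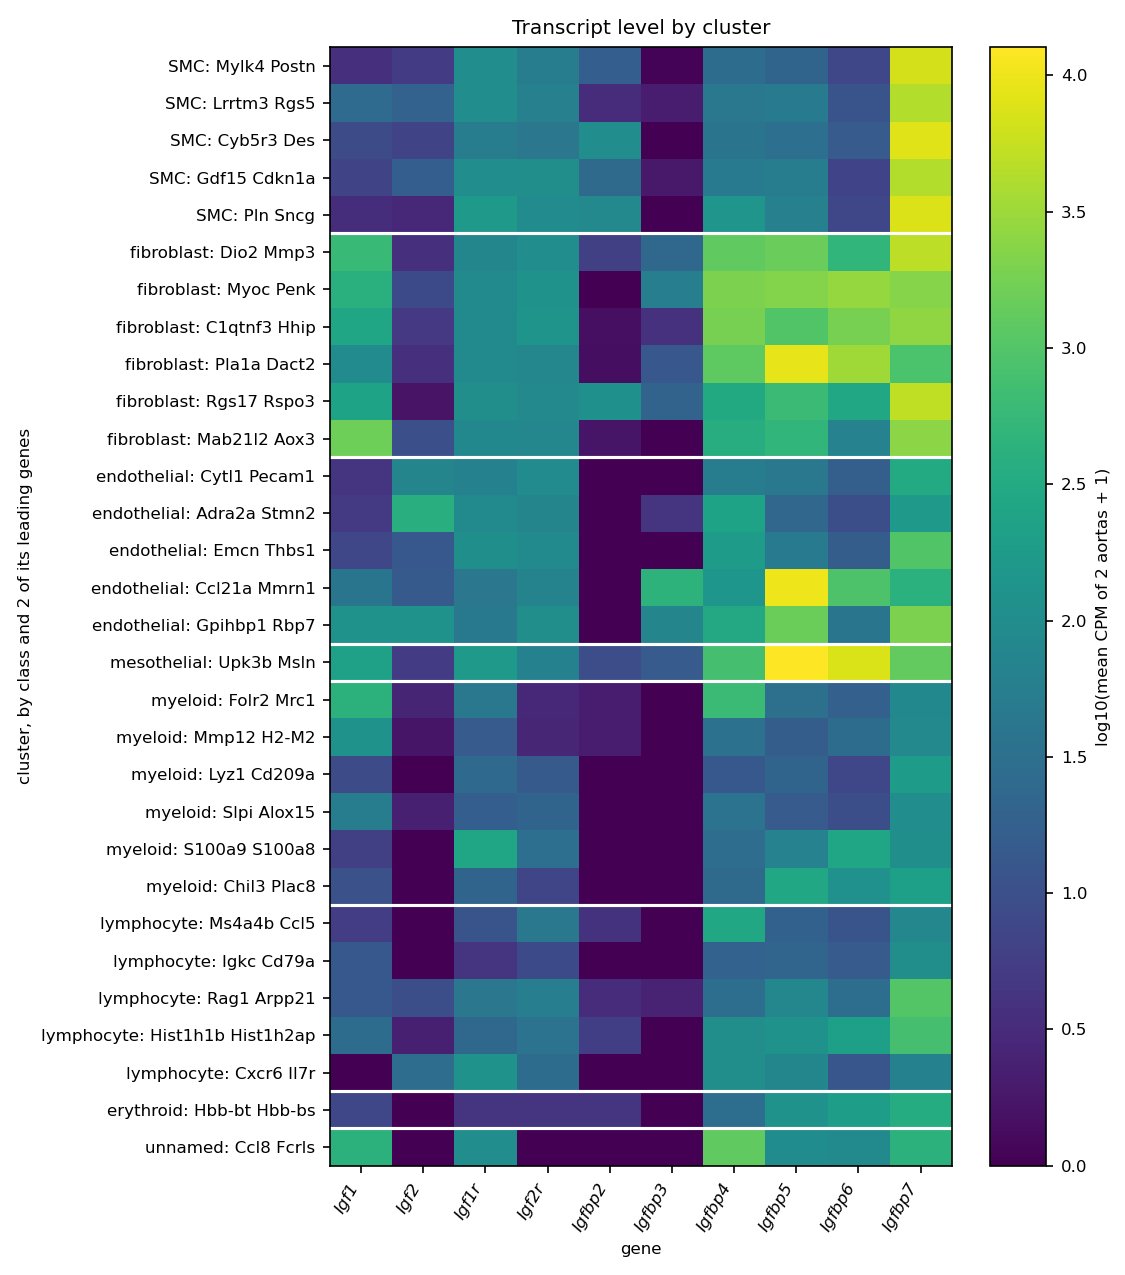
Mean level of each gene (columns) in the 30 clusters with at least 10 cells in each aorta (rows, named by class and 2 of their leading genes), as log10(CPM + 1). Igf1 is brightest in the Mab21l2 fibroblast row, Igf2 in the Adra2a endothelial row, Igfbp5 in the Upk3b mesothelial, Ccl21a endothelial and Pla1a fibroblast rows, and Igfbp7 in the SMC, Rgs17 fibroblast and Dio2 fibroblast rows.

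The signaling receptor *Igf1r* was spread over the wall. It was highest in mesothelial cells, at 161 and 137 CPM, followed by SMCs (104 and 98.9 CPM), fibroblasts (90.2 and 83.0 CPM) and endothelial cells (76.2 and 79.8 CPM), and the values of neighbours in this order did not overlap. Myeloid cells held 35.6 and 34.4 CPM and lymphocytes 20.4 and 19.8 CPM. SMCs were 34.1% and 35.0% of cells, with medians of 7702 and 7487 UMIs. They carried 50.9% ± 1.22 of all *Igf1r* UMIs, and fibroblasts carried 26.1% ± 0.481. The fibroblast clusters were not shown to differ (adjusted p = 0.215), with values from 66.8 to 116 CPM. The SMC clusters did (adjusted p = 0.000148), the *Pln* and *Sncg* cluster being highest at 158 and 156 CPM. Among myeloid cells the *S100a9* cluster had 232 and 305 CPM, from 23 and 20 UMIs, against 8.59 to 46.9 CPM in the other 5 clusters.

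*Igf2r* was highest in fibroblasts and low in myeloid cells. Fibroblasts held 105 and 106 CPM, endothelial cells 83.1 and 89.3 CPM, mesothelial cells 67.8 and 65.8 CPM and SMCs 58.5 and 56.6 CPM. Lymphocytes followed with 37.2 and 31.4 CPM, whereas myeloid cells had 7.94 and 6.67 CPM (48 and 24 UMIs). The *Folr2* macrophage cluster, rich in *Igf1*, had 2.04 and 1.62 CPM of *Igf2r* from 6 and 3 UMIs. Endothelial clusters were not shown to differ (adjusted p = 0.225). *Igf2r* overlaps *Airn*, a noncoding gene on the opposite strand, over 28354 bases, and strand use in the counting is not given in the sources used here. *Airn* itself had 1180 and 768 UMIs against 2591 and 1759 for *Igf2r*, and reads of the pair could be exchanged. *Igf1* and *Igf2* also overlap antisense genes, *Igf1os* and *Igf2os*, with 1 to 8 UMIs per aorta, and *Igf2* shares 16048 bases of its strand with the annotated Gm49394.

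The 6 binding proteins divided the wall between them. Summed, their transcripts were highest in mesothelial cells (21043 and 20275 CPM), then fibroblasts (8421 and 9522 CPM), SMCs (6167 and 6564 CPM) and endothelial cells (1386 and 1966 CPM). They stood at 519 and 469 CPM in myeloid cells. The make-up of that sum differed by type. In SMCs 98.5% ± 0.252 of the binding protein UMIs were *Igfbp7*. Mesothelial cells had 55.6% ± 2.77 *Igfbp5* and 34.1% ± 2.38 *Igfbp6*, and myeloid cells 66.03% ± 0.134 *Igfbp4*. Fibroblasts were mixed, with 34.8% ± 7.10 *Igfbp7*, 30.1% ± 5.12 *Igfbp5*, 19.1% ± 2.34 *Igfbp6* and 15.6% ± 0.200 *Igfbp4*.

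**Figure D3:**
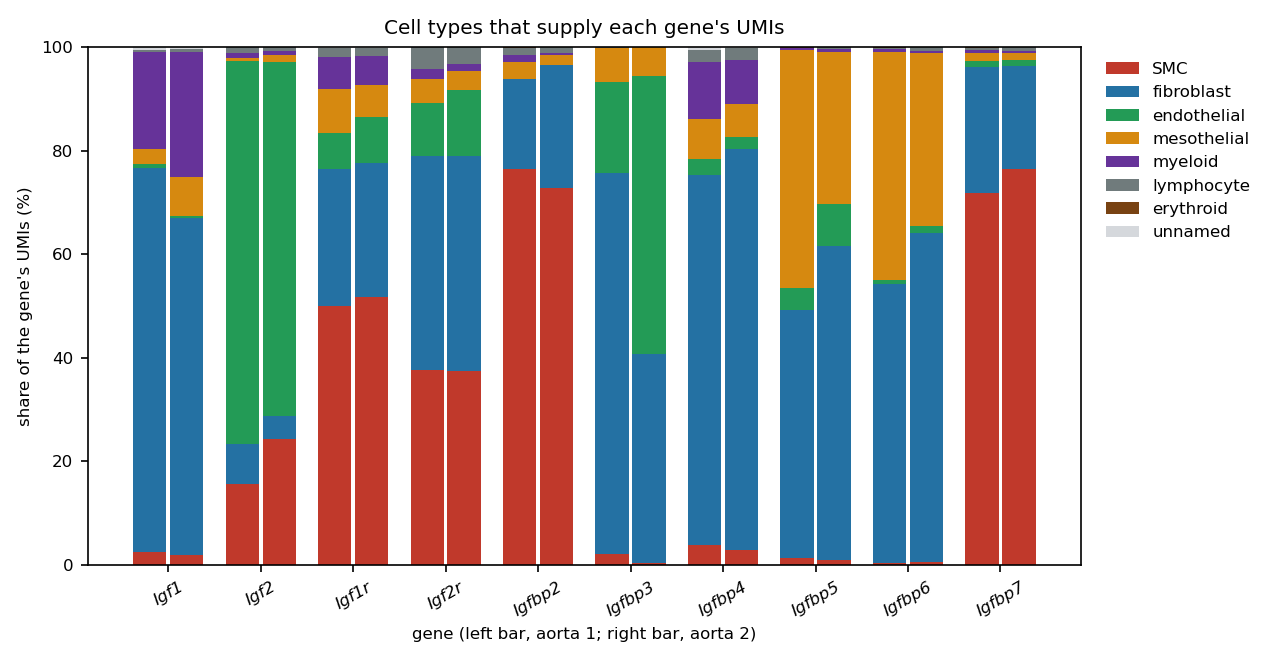
Share of each gene's UMIs that came from each cell type, as stacked bars that sum to 100%; the left bar of each pair is aorta 1 and the right bar aorta 2. Endothelial cells fill most of the Igf2 bars (73.9% and 68.3%), SMCs most of the Igfbp7 bars (71.9% and 76.4%), and the Igfbp3 bars differ most between the aortas.

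*Igfbp7* and *Igfbp2* were the binding proteins with their highest level in SMCs. *Igfbp7*, also known as angiomodulin, stood at 6062 and 6475 CPM in SMCs. Fibroblasts had 3350 and 2832 CPM, mesothelial cells 1290.3 and 1278 CPM, and endothelial cells 499 and 526 CPM. At 1000 UMIs per cell, 95.97% and 97.03% of SMCs and 83.4% and 79.7% of fibroblasts had an *Igfbp7* UMI, against 7.56% and 8.79% of lymphocytes. SMC clusters differed (adjusted p = 3.34e-10), from 3981 and 4463 CPM in the cluster led by the stress genes *Gdf15* and *Cdkn1a* to 7481 and 8309 CPM in the low-depth cluster. Fibroblast clusters differed as well (adjusted p = 1.03e-10), the eGFP-bearing *Rgs17* cluster having 5093 and 5254 CPM, the *Dio2* cluster 5084 and 4684 CPM and the *Pla1a* cluster 918 and 838 CPM. In endothelial cells *Igfbp7* was highest in the *Gpihbp1* cluster, at 2204 and 1681 CPM, and lowest in the Igf2-rich *Adra2a* cluster, at 153 and 183 CPM.

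*Igfbp2* was low throughout. SMCs had 20.2 and 21.1 CPM (338 and 246 UMIs), fibroblasts 7.56 and 11.6 CPM, and endothelial cells 0 UMIs in both aortas, where a count of 0 allows up to 0.525 CPM. The UMIs were concentrated in few clusters. In SMCs the low-depth cluster had 146 and 54.2 CPM, the *Pln* cluster 41.0 and 128 CPM, the *Mylk4* cluster 14.1 and 17.6 CPM, and the *Lrrtm3* cluster 2.98 and 1.61 CPM (adjusted p = 1.43e-07). The order of the first pair was opposite in the aortas. Among fibroblasts, 135 of the 157 *Igfbp2* UMIs lay in the eGFP-bearing *Rgs17* cluster (93.5 and 131 CPM), where 69 and 63 of them were in cells that also had eGFP and 3 and 0 in cells that did not. Fibroblast clusters outside the eGFP-bearing pair had 0 to 9.16 CPM.

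*Igfbp3* was low and uneven within types. Endothelial cells had 26.0 and 53.6 CPM, fibroblasts 34.2 and 14.6 CPM and mesothelial cells 17.2 and 14.2 CPM, and the fibroblast range overlapped both others. Myeloid cells had 0 UMIs, and SMCs 10 and 1. Among the endothelial clusters (adjusted p = 1.27e-15), the lymphatic-like cluster led by *Ccl21a* and *Mmrn1*, which also holds *Prox1* and *Flt4*, had 402 and 501 CPM (67 and 127 UMIs) and the *Gpihbp1* cluster 68.7 and 77.3 CPM, whereas the *Cytl1* and *Emcn* clusters had 0 UMIs. The *Ccl21a* cluster numbered 47 cells in aorta 1 and 76 in aorta 2 and held 14.2% and 50.6% of the aortas' *Igfbp3* UMIs. Fibroblasts held 73.6% and 40.2% of these UMIs. Among them the *Myoc* and *Penk* cluster was highest, at 72.5 and 37.8 CPM, with 37.0% and 25.9% of the aortas' *Igfbp3* UMIs, and the fibroblast clusters differed (adjusted p = 0.000101).

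*Igfbp4* was highest in fibroblasts, followed by mesothelial cells. Its level was 1327 and 1473 CPM in fibroblasts, 807 and 858 CPM in mesothelial cells, 343 and 309 CPM in myeloid cells and 42.6 and 32.6 CPM in SMCs. Fibroblasts supplied 74.4% ± 4.24 of its UMIs. The *Myoc* and the *C1qtnf3* clusters were highest, with 1872 and 2031 CPM and with 1692 and 2001 CPM, and the eGFP-bearing pair was lowest, with 257 to 413 CPM (adjusted p = 3.52e-10 among fibroblast clusters, 0.000134 without the pair). The *Folr2* macrophages had 675 and 579 CPM, and no other myeloid cluster exceeded 40.4 CPM (adjusted p = 4.83e-17). In lymphocytes, the cluster led by *Ms4a4b* and *Ccl5* had 236 and 338 CPM.

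*Igfbp5* and *Igfbp6* rose and fell together over the clusters. *Igfbp5* was at 12104 and 10868 CPM in mesothelial cells, whereas fibroblasts had 2230.04 and 3210.3 CPM, endothelial cells 616 and 1156 CPM and SMCs 35.7 and 25.5 CPM. *Igfbp6* was at 6817 and 7250.2 CPM in mesothelial cells, while fibroblasts had 1472 and 1979 CPM, endothelial cells 56.1 and 113 CPM and SMCs 6.35 and 9.53 CPM. The order was thus the same for both, with no overlap between these types. At 1000 UMIs per cell, 94.2% and 93.6% of mesothelial cells had an *Igfbp5* UMI and 95.99% and 94.9% an *Igfbp6* UMI, against 2.09% and 0.824% and against 0.482% and 1.65% of lymphocytes. Mesothelial cells were 4.19% and 3.38% of cells yet supplied 37.7% ± 11.7 of *Igfbp5* and 38.7% ± 7.65 of *Igfbp6* UMIs. Fibroblast clusters differed for *Igfbp5* (adjusted p = 3.61e-10) and for *Igfbp6* (adjusted p = 4.19e-12). The *Pla1a* cluster, which holds *Pi16*, had the most of both, with 8331 and 9601 CPM of *Igfbp5* and 3172 and 3346 CPM of *Igfbp6*. The *Dio2* cluster, by contrast, had 1436 and 1467 CPM of *Igfbp5* but only 492 and 515 CPM of *Igfbp6*, less than the 1787 and 1904 CPM of *Igfbp6* in the *C1qtnf3* cluster. The lymphatic-like cluster had the most of both among endothelial clusters, with 8976 and 10956 CPM of *Igfbp5* and 841 and 973 CPM of *Igfbp6*, against 53.3 and 31.7 CPM and 8.46 and 24.3 CPM in the *Cytl1* cluster (adjusted p = 4.43e-19 and 1.25e-17 among endothelial clusters). The *Gpihbp1* endothelial cluster had 2356 and 667 CPM of *Igfbp5*. Over the 30 clusters, Pearson's r of *Igfbp5* with *Igfbp6* was 0.87 on log2(mean CPM + 1), the highest of any pair of the 10 genes. The clusters share 2 libraries and differ in depth, so this is a description.

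**Figure D4:**
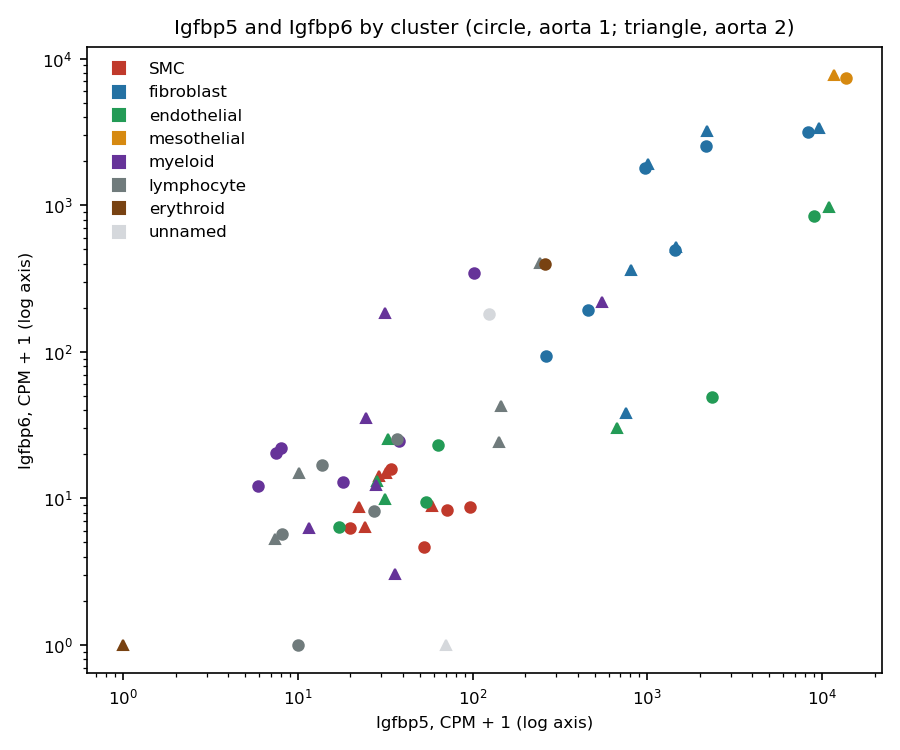
Igfbp5 against Igfbp6 in the 30 clusters, as CPM + 1 on log axes; circles are aorta 1, triangles aorta 2 and colors the class. The mesothelial points lie at the upper right (13706 and 11686 CPM of Igfbp5), the lymphatic-like points at similar Igfbp5 (8976 and 10956 CPM) and lower Igfbp6, and the SMC points at the lower left.

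The promoters of the 3 most abundant binding proteins are shown because *Igfbp5* and *Igfbp6* had the same order over mesothelial cells, fibroblasts, endothelial cells and SMCs while *Igfbp7* had another. For *Igfbp5* the endothelial place rested on the lymphatic-like and *Gpihbp1* clusters, with 1838 of 1964 and 2849 of 2914 endothelial UMIs. The stretches are the 120 bases before the RefSeq transcription start on the gene's own strand (build GRCm38.p6). They lie at chr1:72874866-72874985 (minus strand) for *Igfbp5*, whose gene spans chr1:72857932-72874884, at chr15:102144066-102144185 (plus strand) for *Igfbp6*, whose gene spans chr15:102144362-102149511 in GENCODE, and at chr5:77408046-77408165 (minus strand) for *Igfbp7*, whose gene spans chr5:77349240-77408041. Capitals mark the CCAAT box (CCAAT) and the GC box (GGGCGG), each on either strand.
Igfbp5: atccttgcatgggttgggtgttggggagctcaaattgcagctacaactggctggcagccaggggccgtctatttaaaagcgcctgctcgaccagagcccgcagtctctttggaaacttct
Igfbp6: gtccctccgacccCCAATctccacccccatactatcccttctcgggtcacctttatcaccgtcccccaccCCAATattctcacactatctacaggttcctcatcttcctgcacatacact
Igfbp7: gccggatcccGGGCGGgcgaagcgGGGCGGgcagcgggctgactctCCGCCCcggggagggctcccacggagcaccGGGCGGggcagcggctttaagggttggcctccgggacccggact
*Igfbp6* held CCAAT 2 times and *Igfbp7* held GGGCGG or its reverse complement 4 times, whereas *Igfbp5* held neither. A TATA box (TATAAA) was in none of the 3 stretches, but in the wider 250 bases *Igfbp6* held it on the opposite strand at position −148 from the start. In the 250 bases before the start, 33.8% of 32851 RefSeq promoters held CCAAT, 32.7% the GC box and 12.4% TATAAA on either strand. *Igfbp7* had 26 CpG dinucleotides in its 250 bases, against 10 in *Igfbp5*, 7 in *Igfbp6* and a median of 6 over all promoters. A CArG box, the motif of serum response factor in smooth muscle genes, was in 1.47% of all promoters and in none of these 3. *Igfbp5* lies beside *Igfbp2* on chromosome 1 (chr1:72824503-72852474, plus strand), and the levels of these neighbours were nevertheless unlike, since *Igfbp2* was highest in SMCs and *Igfbp5* was lower there than in fibroblasts, endothelial and mesothelial cells.

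The comparison of SMCs with fibroblasts asks how the family differs between the main cells of the media and the adventitia. The UMIs of all cells of a type in an aorta were added up, and these sums were compared with edgeR's quasi-likelihood test, and a gene was counted as different if its adjusted p was below 0.05 and its log2 fold change beyond 1 in size. Of the 10 genes, 2 were higher in SMCs (9.90% of the 13965 genes tested were) and 5 were higher in fibroblasts (15.7% were). *Igfbp6* differed by −7.69 ± 0.590 (log2 fold change ± SE, adjusted p = 3.06e-10), *Igfbp5* by −6.37 ± 0.473 (1.83e-10), *Igf1* by −5.56 ± 0.306 (1.23e-12), *Igfbp4* by −5.12 ± 0.211 (1.08e-14) and *Igfbp3* by −5.84 ± 0.515 (8.86e-09), all lower in SMCs. *Igfbp7* was higher in SMCs by 1.11 ± 0.275 (adjusted p = 0.00171), a call that DESeq2 did not make (0.85, adjusted p = 0.0801). *Igfbp2* was higher in SMCs by 1.23 ± 0.188 (adjusted p = 1.14e-05), and this value depended on where cells were placed: with at least 5000 UMIs per cell it was 6.30, without the eGFP-bearing fibroblast clusters 3.87, and without the low-depth SMC cluster 0.82, under the fold required, as by DESeq2 (0.96). *Igf2*, *Igf1r* and *Igf2r* differed by less than the fold required, at 0.91 ± 0.273, 0.32 ± 0.0957 and −0.78 ± 0.0947, although *Igf2* passed it with at least 5000 UMIs per cell (1.56) and *Igf2r* by DESeq2 (−1.04).

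Endothelial cells, with the lymphatic-like and *Gpihbp1* clusters included, were set against SMCs. In this comparison 5 of the 10 genes were higher in endothelial cells (16.0% of all genes tested were) and 2 were higher in SMCs (14.0% were). *Igf2* was higher in endothelial cells by 3.99 ± 0.194 (edgeR, adjusted p = 3.25e-13). *Igfbp3* was higher by 6.35 ± 0.537, *Igfbp5* by 4.63 ± 0.440, *Igfbp6* by 3.21 ± 0.551 and *Igfbp4* by 1.81 ± 0.199, with adjusted p-values of 3.98e-05 or less. The lymphatic-like and *Gpihbp1* clusters (87 of 785 and 125 of 729 endothelial cells) held most of the endothelial UMIs of 3 of these genes. They had 77 of 83 and 135 of 135 *Igfbp3* UMIs, 1838 of 1964 and 2849 of 2914 *Igfbp5* UMIs, and 147 of 179 and 250 of 286 *Igfbp6* UMIs. In the other 3 endothelial clusters *Igfbp5* stood at 16.2 to 62.3 CPM, a range that includes the 35.7 and 25.5 CPM of SMCs. *Igfbp4* was spread more widely, with 82 of 602 and 56 of 294 UMIs in the lymphatic-like and *Gpihbp1* clusters. *Igfbp7* was lower in endothelial cells by −3.82 ± 0.306 (5.96e-10), and *Igfbp2*, at 0 UMIs there, was at least 39.4-fold lower. *Igf1r* (−0.60 ± 0.108) and *Igf2r* (0.37 ± 0.106) differed by less than the fold required, and *Igf1* (0.29 ± 0.478) was not shown to differ (adjusted p = 0.643).

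**Figure D5:**
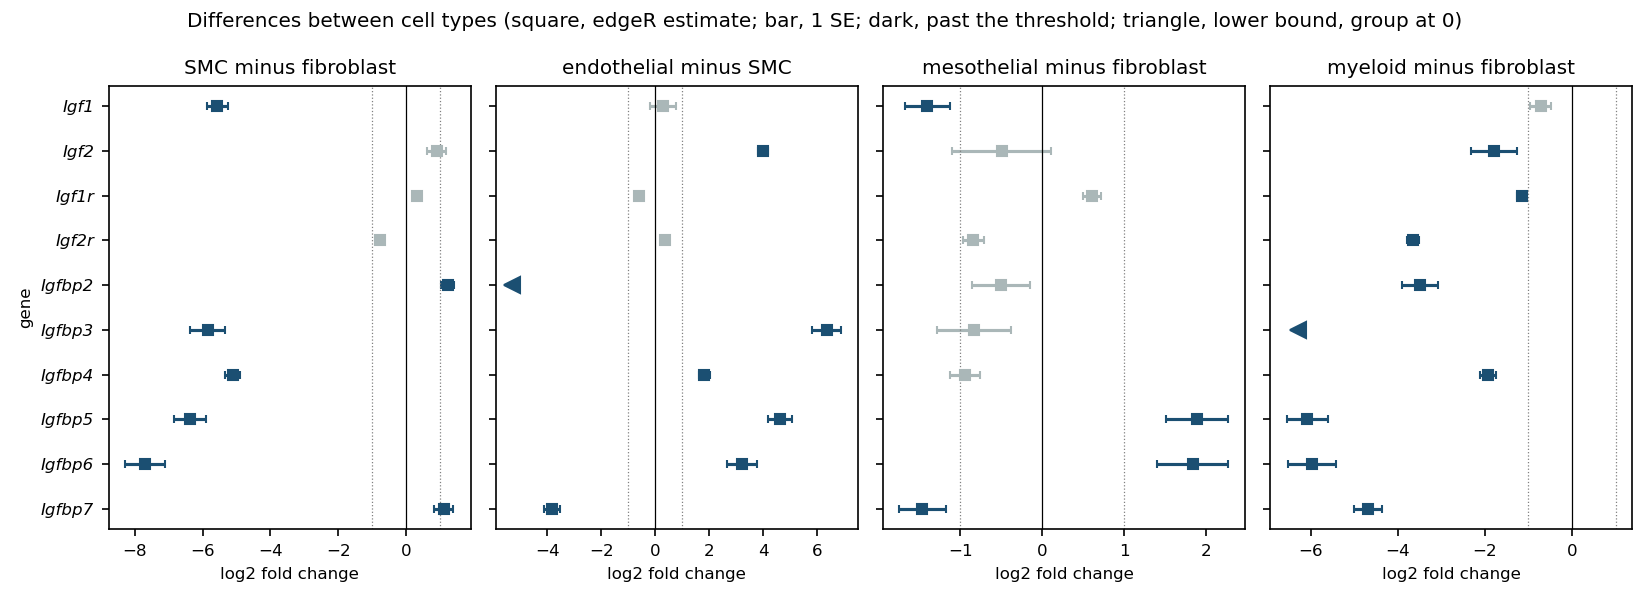
Log2 fold changes of the 10 genes in 4 comparisons of cell types (edgeR estimate, bars 1 SE); dark symbols are past an adjusted p of 0.05 and a log2 fold change of 1, dotted lines mark that fold, and triangles are lower bounds where 1 type had 0 UMIs. Igfbp5 and Igfbp6 lie far left for SMCs against fibroblasts (−6.37 and −7.69) and right for mesothelial cells against fibroblasts (1.89 and 1.83).

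Mesothelial cells, which cover the outer surface, were compared with fibroblasts. Higher in mesothelial cells were 2 of the 10 genes (10.3% of all genes tested were), and higher in fibroblasts another 2 (14.1% were). *Igfbp5* was higher by 1.89 ± 0.382 (edgeR, adjusted p = 0.000391) and *Igfbp6* by 1.83 ± 0.434 (0.00175). By DESeq2 neither passed (adjusted p = 0.1003 and 0.260), although its fold changes were 1.94 and 1.89. *Igfbp7* was lower in mesothelial cells by −1.46 ± 0.281 (edgeR, adjusted p = 0.000223) and *Igf1* by −1.40 ± 0.269 (0.000221), the latter with unequal values in the aortas of −2.35 and −0.51. DESeq2 kept the *Igfbp7* call and lost that of *Igf1* (−1.26, adjusted p = 0.0786), so it counted 1 of the 10 genes in place of 4. *Igfbp4* (−0.95 ± 0.180) fell just short of the fold, and passed it at −1.14 without the eGFP-bearing fibroblasts. *Igf1r* (0.60 ± 0.113) and *Igf2r* (−0.84 ± 0.126) were within 2-fold.

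Myeloid cells were compared with fibroblasts, the other source of *Igf1*. None of the 10 genes was higher in myeloid cells (18.6% of all genes tested were), and 9 were higher in fibroblasts (22.7% were). *Igf1* alone was not counted, at −0.72 ± 0.239 (edgeR, adjusted p = 0.0115). *Igf2r* differed by −3.65 ± 0.145 (2.41e-15), *Igf1r* by −1.14 ± 0.115 (1.60e-08; −0.96, under the fold required, with doublets kept) and *Igfbp4* by −1.93 ± 0.183 (5.34e-09), whereas *Igfbp5*, *Igfbp6* and *Igfbp7* differed by −6.08, −5.97 and −4.69. *Igfbp3*, at 0 UMIs in myeloid cells, was at least 78.5-fold lower there. *Igf2* (−1.78 ± 0.529) and *Igfbp2* (−3.49 ± 0.414) were called from 7 and 4 and from 6 and 1 myeloid UMIs. The *Igf2* call was lost with at least 5000 UMIs per cell (−0.34) and with doublets kept (−0.46). The *Igfbp2* call was lost at resolution 1.5 (−0.75) and without the eGFP-bearing fibroblasts (−0.85), and its direction turned with at least 5000 UMIs per cell (1.67).

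Within a type, most of the genes that could be tested differed among clusters, as did many genes in general. The counts were 8 of 9 tested in SMCs (49.7% of all genes tested did), 8 of 10 in fibroblasts (45.1%), 8 of 9 in endothelial cells (27.8%) and 7 of 7 in myeloid cells (63.6%). Not tested, for too few UMIs, were *Igfbp3* in SMCs, *Igfbp2* in endothelial cells and *Igf2*, *Igfbp2* and *Igfbp3* in myeloid cells. The exceptions among those tested were *Igfbp6* in SMCs (adjusted p = 0.0514), *Igf1r* and *Igf2* in fibroblasts (0.215 and 0.0828) and *Igf2r* in endothelial cells (0.225). Clusters were drawn from other genes of the same cells, so these tests set the differences between clusters against the spread between the aortas and are not independent of the division.

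The other 47 genes of the IGF pathway list, all present among the features, were examined by function, and 41 were tested between types. Of these, 3 were higher in SMCs (against 9.90% of all genes tested) and 9 in fibroblasts (against 15.7%), with a median log2 fold change of −0.35 against −0.07 over all genes tested. *Itgb3*, an integrin subunit that cooperates with IGF1R, was higher in SMCs (63.4 ± 9.38 against 14.9 ± 4.196 CPM, SD, n = 2), as was the adaptor *Grb14* (88.5 ± 8.14 against 33.1 ± 5.59 CPM). Higher in fibroblasts were *Pik3r1*, the regulatory subunit of PI3-kinase (218 ± 16.3 against 41.6 ± 3.38 CPM), and *Pappa*, the protease that cuts IGFBP4 (10.2 ± 2.12 against 0.604 ± 0.247 CPM). *H19*, the noncoding neighbour of *Igf2*, was at 0 UMIs in SMCs and at 5.01 and 14.9 CPM in fibroblasts, at least 94.1-fold higher.

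Of the same 41 genes, 5 were higher in endothelial cells (16.0% of all genes tested were) and 11 in SMCs (14.0%), with a median of −0.0045 against 0 over all genes. *Grb14* (1.69 ± 0.710 against 88.5 ± 8.14 CPM) and the insulin receptor substrate *Irs2* (1.69 ± 0.710 against 30.3 ± 7.58 CPM) were lower in endothelial cells, and the kinase *Mapk3* (223 ± 8.29 against 66.6 ± 4.84 CPM), the RNA-binding protein *Igf2bp2* (17.0 ± 4.05 against 1.59 ± 0.299 CPM) and the *Pappa* inhibitor *Stc1* (20.3 ± 1.63 against 5.17 ± 1.30 CPM) were higher. The protease *Pappa2* was at 0 UMIs in endothelial cells and at 3.24 ± 0.0832 CPM in SMCs.

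Between mesothelial cells and fibroblasts, 3 were higher in mesothelial cells (10.3% of all genes tested were) and 9 in fibroblasts (14.1%), with a median of −0.31 against −0.13 over all genes. *Pappa* was higher in mesothelial cells (44.8 ± 0.306 against 10.2 ± 2.12 CPM), as was *Igf2bp2* (19.6 ± 8.08 against 7.81 ± 0.217 CPM). *Htra3*, a serine protease that can cut binding proteins (13.2 ± 2.89 against 314 ± 24.2 CPM), and *Stc2*, an inhibitor of *Pappa* (3.14 ± 1.29 against 12.7 ± 3.01 CPM), were lower there. Mesothelial cells had no *H19* UMI.

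Myeloid cells had 2 of the 41 higher (18.6% of all genes tested were) and 19 lower than fibroblasts (22.7%), with a median of −0.99 against −0.0033 over all genes. The adaptor *Grb2* (201 ± 4.88 against 50.9 ± 1.16 CPM) and *M6pr*, the cation-dependent mannose 6-phosphate receptor (96.2 ± 1.72 against 50.02 ± 1.49 CPM), were the 2 higher in myeloid cells, the latter where *Igf2r* was low. All 6 of the proteases and inhibitors were lower in myeloid cells, with a median of −5.74 (−5.21 with *Pappa2*, at 0 there, set to its bound). *Stc2* was at 0.139 ± 0.196 against 12.7 ± 3.01 CPM, and *H19* and *Pappa2* were at 0.

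The genes whose pattern over the 14 sums (7 types in 2 aortas) was most like that of each member were named by Pearson's r on log2 CPM. They were *Clcn5* (0.96) for *Igf1*, *Sox13* (0.96) for *Igf2*, *Arhgap5* (0.99) for *Igf1r*, *Trp53i13* (0.98) for *Igf2r*, *Kif1a* (0.97) for *Igfbp2*, *Heph* (0.97) for *Igfbp3*, *1700025G04Rik* (0.96) for *Igfbp4*, *C1ra* (0.97) for *Igfbp5*, *Bicc1* (0.95) for *Igfbp6* and *Map1a* (0.94) for *Igfbp7*. Next in likeness were *Dtx4* and *C4b* for *Igf1*, *Hoxd4* and *Pipox* for *Igf2*, *Gkap1* and *Pgrmc1* for *Igf1r*, *Mr1* and *Cbx6* for *Igf2r*, *Gpc1* and *Podxl2* for *Igfbp2*, *Plscr2* and *Il20rb* for *Igfbp3*, *Dapk1* and *Pde8a* for *Igfbp4*, *Efemp1* and *Pdpn* for *Igfbp5*, *Flrt2* and *Efemp1* for *Igfbp6*, and *Snhg18* and *Csrp2* for *Igfbp7*, with r from 0.93 to 0.99. The points share their libraries, and with so many genes high values of r are common, so these are descriptions.

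Low levels in a type can include free RNA or mixed droplets, which were not told apart. The SMC markers were found in lymphocytes at 0.0221 to 0.0298 of their SMC level in aorta 1 and at 0.0413 to 0.0601 in aorta 2, and *Igfbp7* at 0.0354 and 0.0685. These lymphocyte values were uneven among clusters. The cluster led by *Rag1* and *Arpp21* had 564 and 1460 CPM of *Igfbp7* and 250 and 1003 CPM of *Myh11*. In the *Ms4a4b* cluster the values were 101 and 56.8 CPM of *Igfbp7* and 88.6 and 43.0 CPM of *Myh11*. *Igfbp7* in lymphocytes was near but above the highest of the 8 SMC markers there in both aortas, and its source was not tested. Its endothelial average, at 0.0824 and 0.0813 of SMCs, lay near the highest of the 8 SMC markers in endothelial cells (0.0786 and 0.0911) and above their medians (0.0254 and 0.0202). The *Igf1* of SMCs, at 0.0203 and 0.0179 of the fibroblast level, was within the range of fibroblast markers in SMCs (0.00258 to 0.0774) but above their medians there (0.00908 and 0.00753). It stood at 35.5 and 17.7 CPM in the *Lrrtm3* SMC cluster against 3.63 and 1.72 CPM in the *Mylk4* cluster, and the part of free RNA in these values was not tested. Myeloid *Igf1*, at 0.426 and 0.715 of the fibroblast level, and myeloid *Igfbp4*, at 0.259 and 0.210, were far above the fibroblast markers in myeloid cells (at most 0.0241). Lymphocyte *Igfbp4*, at 0.109 and 0.110, was likewise above those markers in lymphocytes (at most 0.0256). Endothelial *Igfbp4*, at 0.142 and 0.0792 of the fibroblast level, was near the highest fibroblast marker in endothelial cells (0.130 and 0.116) and above their medians (0.0260 and 0.0222).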

How the data were processed

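Single cells of 2 thoracic aortas were sequenced with Chromium 3′ v3.1 chemistry. Counts are UMI counts per gene and cell as deposited by the authors, made with Cell Ranger 4.0.0 per the file headers on mm10 with eGFP and tdTomato sequences added, 1 library per aorta, and Seurat 4.0 is named in the submitters' processing notes. Whether counting used strand is not given in the sources used here. Cells with at least 200 genes, 1000 to 25000 UMIs and under 10% mitochondrial UMIs were kept, and Scrublet removed 201 (2.98%) and 89 (1.89%) doublets. Cells were scaled to 10000 UMIs and clustered on 2000 variable genes and 30 components with scanpy 1.11.5 (Leiden resolution 1, leidenalg 0.10.2). The 10 genes, 47 other pathway genes, the reporters and mitochondrial genes played no part in the clustering. UMIs were summed per aorta and type (14 sums, from 93837 UMIs in erythroid cells to 16694928 in SMCs) and tested with edgeR 4.0.16 (R 4.3.3, TMM, filterByExpr, quasi-likelihood, Benjamini-Hochberg over all genes tested), after the procedure was tested on simulated data. Genes were called at adjusted p below 0.05 with a log2 fold change beyond 1 in size, or the adjusted p alone among clusters with at least 10 cells in each aorta. A type at 0 was given the floor of 3 UMIs over both aortas. With 2 aortas of 1 group, p-values measure the spread between these aortas. Cell types of 1 aorta come from the same animal, which pairs them. Alternatives were DESeq2 1.42.0, no TMM, no gene filter, the replicate block, at least 5000 UMIs per cell, doublets kept, other resolutions (0.6 and 1.5), the members allowed in the clustering, other thinning, and each aorta left out. The exclusions of the low-depth SMC and the eGFP-bearing fibroblast clusters were chosen after seeing the data. The genes and lists were chosen with earlier results of these data known. Other pathway genes named are the 3 with the largest change in each direction among those called with at least 20 UMIs in each aorta in the higher type, 1 of which is not reported here. Genes of like pattern are the 3 with the highest Pearson's r on log2 CPM (prior count 2). Promoter sequences are from RefSeq (GRCm38.p6) and gene spans from GENCODE; all 10 genes matched, with 14 promoters.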

Additional observations from a re-analysis of the deposited data

Results flagged for a closer look

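In 88 cells that received no cell type name and entered no comparison, 3 of the genes had over 3 UMIs in each aorta. The larger of the 2 unnamed clusters (75 cells) was led by *Ccl8*, *Fcrls*, *Pf4* and *Mrc1*, and its cells had medians of 1441 and 1281 UMIs. It shared *Pf4*, *Mrc1*, *F13a1*, *Fxyd2* and *Cd163* among its leading genes with the *Folr2* macrophage cluster. The identity of these cells was not tested. In the unnamed cells *Igf1* had a mean of 394 CPM (336 and 453 CPM, 36 and 13 UMIs), *Igfbp4* 1164 CPM (1074 and 1254 CPM, 115 and 36 UMIs) and *Igf1r* 102 CPM (65.4 and 139 CPM, 7 and 4 UMIs), each above the limit that a count of 0 allows. Other members were also found there, such as *Igfbp7* with 67 and 3 UMIs in the larger cluster.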

How the results depend on the processing

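The number of the 10 genes counted as different stayed within 1.5 times in 87 of 88 repeats; DESeq2 counted 1 in place of 4 for mesothelial cells against fibroblasts. Of 520 log2 fold changes recomputed, 486 were counted as the same. With both aortas this meant the same direction and side of the threshold, and with 1 aorta left out only a value within the spread. Of the rest, 11 fell short of the threshold, 6 passed it anew, and 9 moved by more than their spread, all on leaving out 1 aorta. Direction was judged only in repeats with both aortas. Of 630 levels 73 moved by more than 1 SD, 29 of them with at least 5000 UMIs per cell, as did 20 of 90 shares of UMIs and 29 of 50 shares of cells. The direction turned in 8: *Igf1* in endothelial cells against SMCs with at least 5000 UMIs per cell (−0.92) and at resolution 1.5 (−0.41), *Igf2* in mesothelial cells against fibroblasts with at least 5000 UMIs (0.54), *Igfbp2* there with at least 5000 UMIs (4.72), at resolution 0.6 (0.23), at 1.5 (2.23) and without the eGFP-bearing clusters (2.13), and *Igfbp2* in myeloid cells against fibroblasts with at least 5000 UMIs (1.67). The cause was not tested. *Igf2* in myeloid cells against fibroblasts was no longer counted with at least 5000 UMIs (−0.34) or with doublets kept (−0.46), nor *Igf1r* there with doublets kept (−0.96) or *Igfbp2* there at resolution 1.5 (−0.75). *Igf1* in endothelial cells against SMCs passed the threshold with doublets kept (1.28), as did *Igfbp4* in mesothelial cells against fibroblasts with at least 5000 UMIs (−1.12) and at resolution 1.5 (−1.01). The share of *Igf2* UMIs from endothelial cells was 47.1% with at least 5000 UMIs per cell. Without the eGFP-bearing clusters the share from SMCs was 90.5% for *Igfbp2* and 53.0% for *Igf1r*, and the share of *Igf2r* from fibroblasts 38.6%. The replicate block (aorta as a term) changed no call in the 4 comparisons of types, all 40 log2 fold changes keeping their side of the threshold, and left the counts among clusters within 1.5 times. DESeq2 shifted the median of all genes by −0.26 for SMCs against fibroblasts, by 0.21 for endothelial cells against SMCs and by −0.20 for myeloid cells against fibroblasts; its calls split 903 to 2541 for the first and 2475 to 1415 for the second, against 1382 to 2195 and 2231 to 1955 by edgeR. Low UMI numbers limited *Igf2*, *Igfbp2* and *Igfbp3* outside their main cell types.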
